A study of Mus musculus with 6 samples.

Results

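Genes of the unfolded protein response and the integrated stress response were examined in sorted mouse pancreatic tumor cells. The 30 genes were chosen by symbol as known stress sensors, transcription factors, chaperones, degradation genes and ATF4 targets, and all 30 were found among the 24493 genes of the deposited table. RNA had been sequenced from 2 libraries of the GAFCP group and 4 libraries of the control group. GAFCP tumors had received gemcitabine (a nucleoside analog), abraxane (paclitaxel bound to albumin), a CD40 agonist, and blockade of both PD-1 and CTLA-4, and control tumors had not. In both groups the titles name the tumor cells 6419c5, the tumors had been implanted under the skin of C57BL/6 mice, and the cells were sorted from them, so the site was not the pancreas and a single named tumor line was sampled. The labels give no dose, timing, mouse age or sorting gate. Values are TPM, an abundance scaled per transcript length and to the same total in each library, and the sequencing depth is unknown. The labels do not tie libraries to animals, so the spread behind each p-value may be technical.

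The endoplasmic reticulum (ER) folds secreted and membrane proteins, and misfolded protein there is sensed by IRE1 (encoded by Ern1), PERK (Eif2ak3) and ATF6. IRE1 splices the Xbp1 transcript, ATF6 is cleaved into a transcription factor, and both raise ER chaperones and the machinery that removes misfolded protein. PERK phosphorylates eIF2, which lowers overall translation and favors translation of ATF4. Other kinases reach the same step under amino acid shortage, double-stranded RNA or heme shortage, and the shared outcome is called the integrated stress response. ATF4 then raises genes for amino acid uptake and synthesis together with stress regulators such as Ddit3, which encodes CHOP. Much of this control acts on splicing, cleavage and translation, which gene-level TPM does not show.

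All 30 genes passed the filter of at least 1 TPM in at least 2 libraries. With GAFCP, 11 rose and 5 fell, and the other 14 did not pass the test (limma on log2(TPM + 1), adjusted p under 0.05). Over all 13720 genes tested, 19.0% were called higher and 28.5% lower, 47.5% in all. Of the 30 genes, 36.7% were called higher, 16.7% lower and 53.3% in either direction, so the share called in either direction was near that of all genes. The median log2 change was 0.13 over the 30 genes and -0.067 over all genes tested. GAFCP and control libraries did not overlap for 21 of the 30 genes, 16 of them above and 5 below the controls, where 61.6% of all genes tested did not overlap, 24.7% above and 36.9% below. Fewer cells of a type and less RNA per cell cannot be told apart in such bulk libraries. The largest change among the 30 was that of Ppp1r15a, at 2.12-fold of the control mean, and the other called genes lay between 0.71-fold and 1.36-fold.

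**Figure D1:**
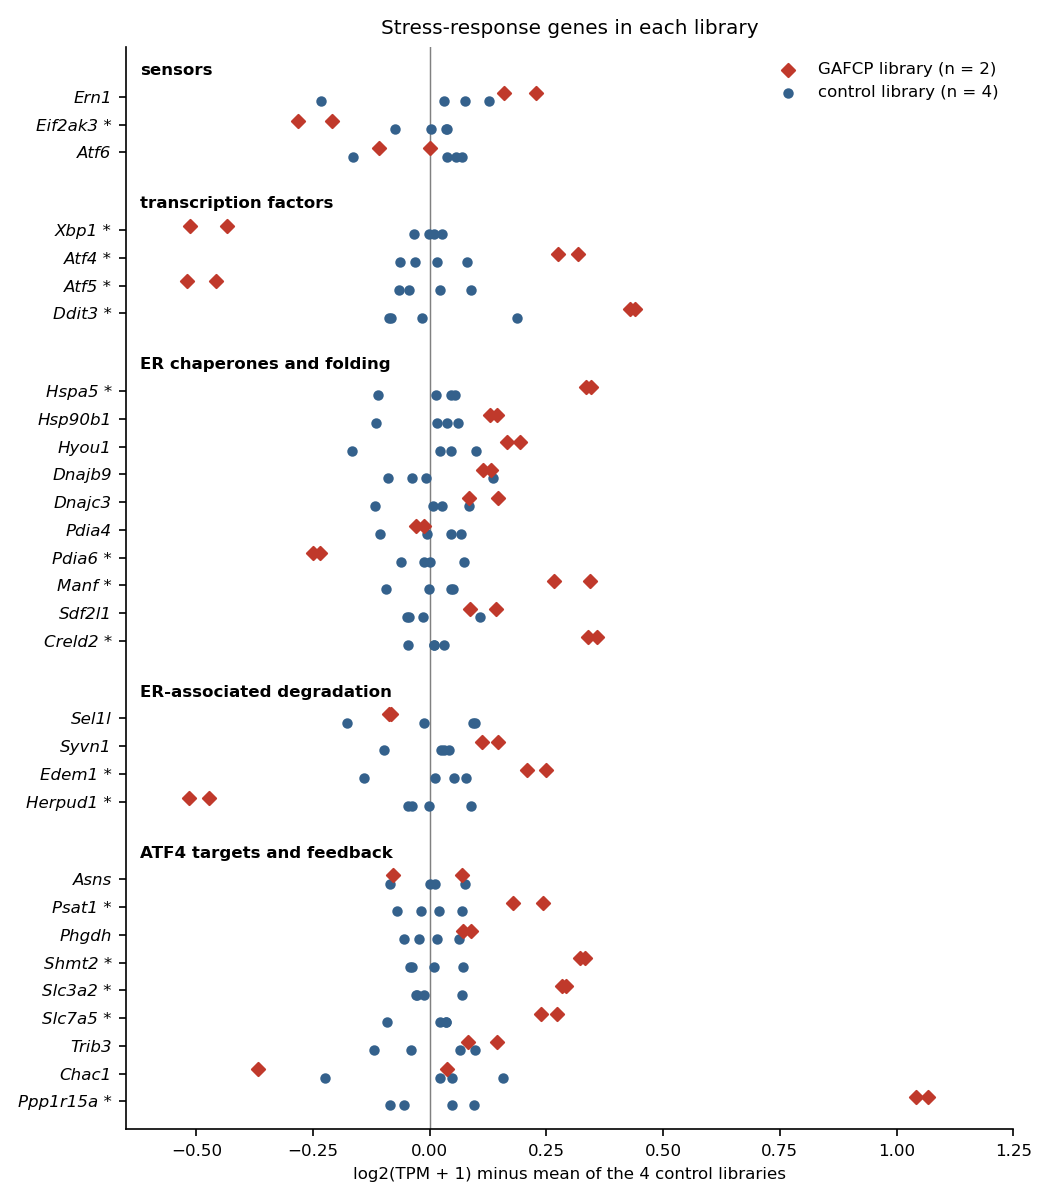
Each library's log2(TPM + 1) minus the mean of the 4 control libraries, for 30 stress-response genes by role; red diamonds are the 2 GAFCP libraries, blue circles the 4 control libraries, and an asterisk marks an adjusted p under 0.05. Ppp1r15a sits farthest to the right, while Herpud1, Atf5 and Xbp1 sit farthest to the left with both GAFCP libraries below every control.

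The libraries differed in other ways that touch these values. Macrophage and monocyte markers summed to 6097 to 6160.4 TPM in the GAFCP libraries and 1560.4 to 1665 TPM in controls, with 15 of 16 higher, and pan-leukocyte markers to 314 to 325 TPM in the GAFCP libraries and 106 to 125 TPM in controls, with 10 of 10 higher. Tumor epithelium markers summed to 5218 to 5254 TPM in the GAFCP libraries and 6859.7 to 7251 TPM in controls, with 7 of 10 lower and 1 higher, while Krt18, a defining keratin, was at 1665 and 1718 TPM in the GAFCP libraries, against 1739, 1826, 1724 and 1775 TPM in control libraries 1 to 4. Epcam, an epithelial surface protein, was at 1.68 and 1.39 TPM in the GAFCP libraries, against 12.5, 12.8, 12.9 and 13.1 TPM in control libraries 1 to 4. This 1 marker of the labelled cell type was nearly absent with GAFCP, and the others were not. Cdh1, at a mean of 332 TPM with GAFCP and 358 TPM in controls, did not pass the test. The marker that was higher was Cldn4, at 9.49 TPM with GAFCP and 6.06 TPM in controls. Fibroblast markers summed to 340.3 to 342 TPM in the GAFCP libraries and 201 to 220.2 TPM in controls, with 7 of 9 tested higher. T and NK cell markers summed to 32.9 to 36.4 TPM in the GAFCP libraries and 5.13 to 7.50 TPM in controls, with 7 of 7 tested higher, neutrophil markers to 108 to 117 TPM in the GAFCP libraries and 35.6 to 41.1 TPM in controls, with 4 of 6 tested higher, and endothelial markers to 12.5 to 14.1 TPM in the GAFCP libraries and 16.1 to 17.9 TPM in controls, with 1 of 4 tested higher and 2 lower. Immediate-early genes, a class that tissue dissociation can also induce, summed to 2976 to 2991 TPM in the GAFCP libraries and 1809 to 1923 TPM in controls, with 10 of 12 higher and 1 lower. Markers of secretory cell types rich in ER were low where they had values. Of 11 B and plasma cell markers, 9 had values, and Ighm and Igkc were not among them. The 9 summed to 8.70 to 8.85 TPM in the GAFCP libraries and 2.55 to 3.31 TPM in controls, with 1 of 2 tested, Jchain, higher. Plasma cell content cannot be read from this sum, since Ighm and Igkc are missing from it. Acinar markers summed to 8.04 to 8.64 TPM in the GAFCP libraries and 11.6 to 14.9 TPM in controls. Of 12 acinar markers, 5 were at 0 in every library, Cpa1 and Ptf1a among them, and the 1 tested, Cela1, was lower, at 6.64 TPM with GAFCP and 11.8 TPM in controls. What part any of these has in the changes of the stress genes was not tested. Control library 3 had the lowest control value for 18 of the 30 genes, and control library 2 for 0. This was not counted over all genes, so it cannot be called particular to the 30. Leaving out control library 3 moved the median log2 change from 0.13 to 0.098 over the 30 genes and from -0.067 to -0.090 over all genes tested.

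Abundance differed widely among the 30 genes, and TPM is a level per transcript length. Hspa5, the ER chaperone BiP, was the highest in both groups, at 560.2 ± 2.95 TPM with GAFCP and 443 ± 23.0 TPM in controls (SD, n = 2 and n = 4). Hsp90b1, the ER chaperone GRP94, came next, at 403 ± 3.07 TPM with GAFCP and 367 ± 19.5 TPM in controls (SD). The lowest was Chac1, which encodes a glutathione-degrading enzyme, at 3.65 ± 0.915 TPM with GAFCP and 4.19 ± 0.558 TPM in controls (SD), with Trib3 just above it at 8.89 ± 0.303 TPM with GAFCP and 8.16 ± 0.625 TPM in controls (SD). By mean TPM, Ppp1r15a stood at place 17 of 30 with GAFCP and place 25 in controls, and Xbp1 at place 14 with GAFCP and place 9 in controls.

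Promoter sequence is shown because the ER stress factors and ATF4 are known to bind short elements near the start sites of these genes, and because genes that carry the same element did not all move the same way. RefSeq promoter windows on GRCm38.p6, from 250 bases before to 50 bases from the start of transcription, were matched by symbol for 26 of the 30 genes, 28 windows in all. Both strands were searched for the ER stress response element ERSE (CCAAT and CCACG with 9 bases between them), its CCACG part alone, the element UPRE (TGACGTG), the C/EBP-ATF element bound by ATF4 (TGATGNAA) and, added after the windows had been read, ERSE-II (ATTGG and CCACG with 1 base between them). Every full ERSE or ERSE-II match also holds a CCACG. Each window is printed 5′ to 3′ on the strand of its gene. Positions count from the first transcribed base as 0. The sequences below have ERSE and ERSE-II letters other than the bases between them, UPRE, and C/EBP-ATF matches in capitals. Hspa5 and Creld2 rose, Pdia6 and Herpud1 fell, and Asns did not pass the test.
Hspa5 (chr2:34771840-34772139, plus strand): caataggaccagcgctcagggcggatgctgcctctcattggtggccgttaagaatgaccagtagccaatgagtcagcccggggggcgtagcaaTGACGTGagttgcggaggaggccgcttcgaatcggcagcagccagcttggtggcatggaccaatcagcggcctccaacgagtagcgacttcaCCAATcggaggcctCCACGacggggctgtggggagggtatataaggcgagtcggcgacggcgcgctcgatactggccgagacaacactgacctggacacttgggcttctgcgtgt
Creld2 (chr15:88819396-88819695, plus strand): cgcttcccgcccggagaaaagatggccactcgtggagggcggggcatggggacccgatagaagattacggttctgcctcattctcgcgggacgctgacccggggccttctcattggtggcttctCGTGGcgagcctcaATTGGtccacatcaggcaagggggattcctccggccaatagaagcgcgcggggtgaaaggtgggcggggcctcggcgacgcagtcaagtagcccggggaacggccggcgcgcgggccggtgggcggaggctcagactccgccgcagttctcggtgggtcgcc
Pdia6 (chr12:17266339-17266638, plus strand): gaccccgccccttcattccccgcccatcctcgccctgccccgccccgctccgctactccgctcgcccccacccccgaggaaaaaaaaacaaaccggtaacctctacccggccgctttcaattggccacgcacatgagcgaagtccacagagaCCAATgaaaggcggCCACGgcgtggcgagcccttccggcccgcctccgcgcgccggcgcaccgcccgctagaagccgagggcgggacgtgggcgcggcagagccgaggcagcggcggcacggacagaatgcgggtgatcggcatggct
Herpud1 (chr8:94386179-94386478, plus strand): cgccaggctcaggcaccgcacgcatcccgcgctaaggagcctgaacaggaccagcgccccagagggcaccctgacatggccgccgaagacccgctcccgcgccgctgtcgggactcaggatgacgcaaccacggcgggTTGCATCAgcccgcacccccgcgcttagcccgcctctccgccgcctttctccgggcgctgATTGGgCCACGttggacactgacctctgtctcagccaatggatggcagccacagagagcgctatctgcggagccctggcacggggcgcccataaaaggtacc
Asns (chr6:7693160-7693459, minus strand): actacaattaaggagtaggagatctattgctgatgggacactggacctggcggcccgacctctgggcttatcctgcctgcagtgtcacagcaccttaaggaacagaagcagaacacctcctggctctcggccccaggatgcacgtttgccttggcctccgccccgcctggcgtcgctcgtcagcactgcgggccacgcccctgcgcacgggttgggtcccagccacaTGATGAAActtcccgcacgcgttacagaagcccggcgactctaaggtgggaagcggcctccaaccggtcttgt

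A full ERSE was found in 6 of the 26 genes with a window (23.1%), against 37 of 27025 genes (0.137%) in the whole promoter table. Both the genes and the elements were picked from knowledge of this pathway, so an excess of matches is no test. The 6 were Hspa5, Hsp90b1, Dnajc3, Pdia6, Creld2 and Syvn1, and of these 2 rose, 1 fell and 3 did not pass the test. As 19.0% of all genes tested were called higher and 28.5% lower, this split over 6 genes is not particular to the element. In Hspa5 the ERSE lay at -65 to -47 and a UPRE at -157 to -151. In Creld2, on the opposite strand, it lay at -126 to -108, and in Pdia6 at -98 to -80, between the positions in the 2 genes that rose. Herpud1 held the ERSE-II at -52 to -42, an element found in 12 of 27025 genes (0.0444%). A CCACG was in all 8 ER chaperone and folding genes with a window and in all 4 degradation genes, against 35.5% of all genes. These windows were also richer in G and C, at a median of 61.5% over the 28 windows and 52.7% over the 32851 windows of the table.

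The C/EBP-ATF element was found in 4 of the 26 genes (15.4%), against 1219 of 27025 genes (4.51%). These were Asns at -23 to -16, Trib3 at 14 to 21, Chac1 at -193 to -186 and Herpud1 at -112 to -105. None of the 4 rose: Herpud1 fell and the other 3 did not pass the test, with log2 changes of -0.0057 for Asns, 0.11 for Trib3 and -0.17 for Chac1. Over all genes tested 19.0% were called higher and 28.5% lower, so counts among 4 genes cannot tell whether the element matters. The ATF4 target genes that rose and had a window (Psat1, Shmt2, Slc3a2 and Ppp1r15a) held no match in it. A match is a description of letters in this window only.

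**Figure D2:**
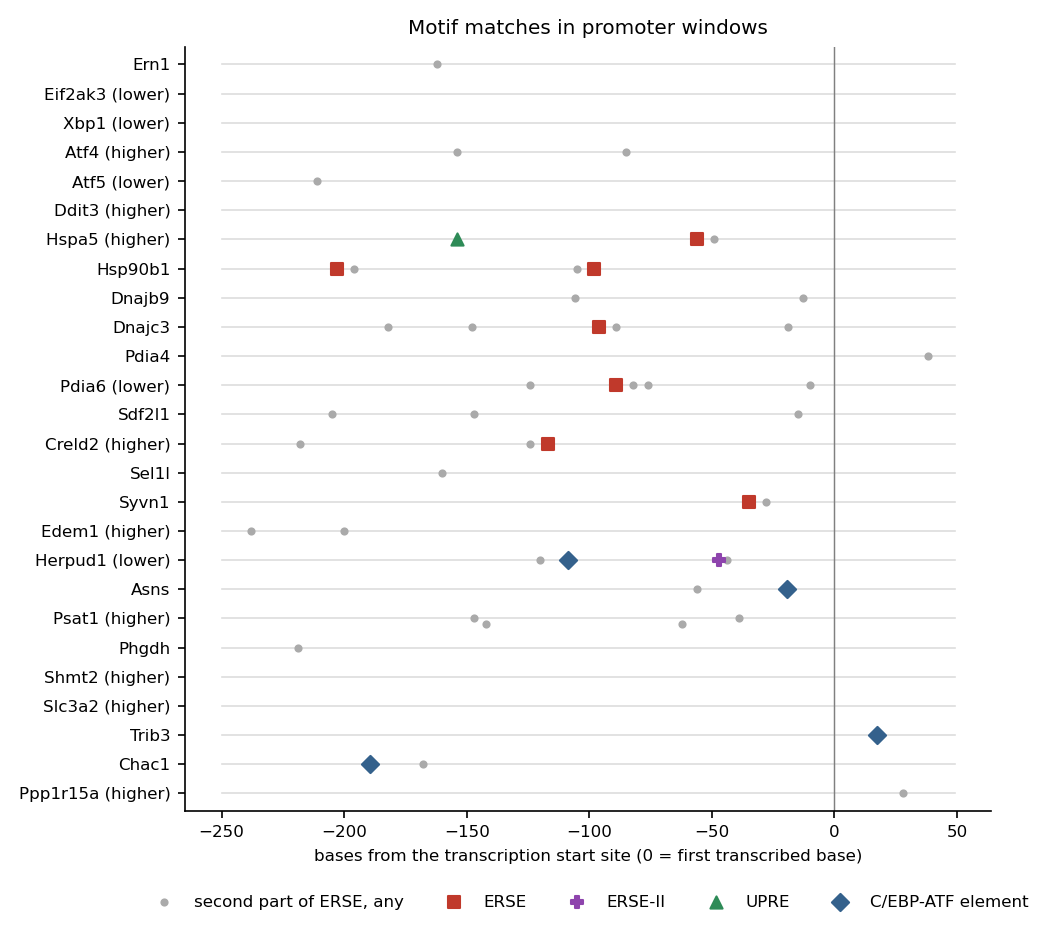
Motif matches along the promoter windows of the 26 genes with a RefSeq window; the horizontal axis is the distance in bases from the transcription start site, red squares are ERSE, the purple plus is ERSE-II, the green triangle UPRE, blue diamonds the C/EBP-ATF element and grey dots the second part of ERSE wherever it occurs. Genes are in order of role, and those called higher or lower with GAFCP are marked; for genes with a second window its matches are drawn slightly lower on the same line.

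Among the sensors, 1 of 3 fell, where 28.5% of all genes tested were called lower. Eif2ak3, the kinase PERK, had 15.1 and 14.3 TPM in the GAFCP libraries, against 18.1, 17.7, 16.7 and 18.1 TPM in control libraries 1 to 4. Both GAFCP libraries lay below all controls, and the log2 change was -0.25 ± 0.06 (SE, adjusted p = 0.0115 by limma). This call was lost without GAFCP library 2 (limma adjusted p = 0.103) and with control libraries 3 and 4 alone (limma adjusted p = 0.0733). Ern1, the sensor IRE1, had 23.7 and 22.6 TPM in the GAFCP libraries, against 21.3, 22.1, 17.0 and 20.6 TPM in control libraries 1 to 4. The GAFCP libraries were above every control, but control library 3 was low and the change of 0.19 ± 0.10 (SE, adjusted p = 0.152 by limma) did not pass. Atf6, which is freed by proteases in the Golgi, had 16.1 and 17.4 TPM in the GAFCP libraries, against 18.3, 18.2, 15.5 and 17.9 TPM in control libraries 1 to 4. Both GAFCP libraries lay within the control range, and the log2 change was -0.053 ± 0.08 (SE, adjusted p = 0.62 by limma).

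The 4 transcription factors all changed, 2 up and 2 down, and no alternative setting changed these counts. Calls were common, at 47.5% of all genes tested, so this count over 4 genes is not read as a trait of the class. Atf4 (chromosome 15, 80255184 to 80257541, mm10), the central factor of the integrated stress response, had 180.3 and 175 TPM in the GAFCP libraries, against 138, 153, 142 and 146 TPM in control libraries 1 to 4. Every GAFCP value exceeded every control value, and the log2 change was 0.30 ± 0.05 (SE, adjusted p = 0.00136 by limma). Ddit3 (chromosome 10, 127290774 to 127296288), which encodes the pro-apoptotic factor CHOP, had 48.7 and 49.1 TPM in the GAFCP libraries, against 33.8, 35.6, 33.9 and 41.1 TPM in control libraries 1 to 4. Control library 4 was the highest control and still lay below both GAFCP libraries, with a log2 change of 0.43 ± 0.08 (SE, adjusted p = 0.00313 by limma). Xbp1 (chromosome 11, 5520659 to 5525893), whose spliced transcript encodes the factor downstream of IRE1, had 74.9 and 70.8 TPM in the GAFCP libraries, against 103, 101, 102 and 99.1 TPM in control libraries 1 to 4. It fell to 0.72-fold of the control mean in GAFCP libraries, a log2 change of -0.47 ± 0.04 (SE, adjusted p = 5.1e-05 by limma). TPM is summed per gene, so spliced and unspliced Xbp1 are not separated. Atf5 (chromosome 7, 44812256 to 44816658), a relative of ATF4 whose translation is also favored when eIF2 is phosphorylated, had 46.2 and 44.1 TPM in the GAFCP libraries, against 60.8, 67.9, 61.8 and 64.8 TPM in control libraries 1 to 4. It also fell, with a log2 change of -0.49 ± 0.05 (SE, adjusted p = 2.3e-04 by limma).

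**Figure D3:**
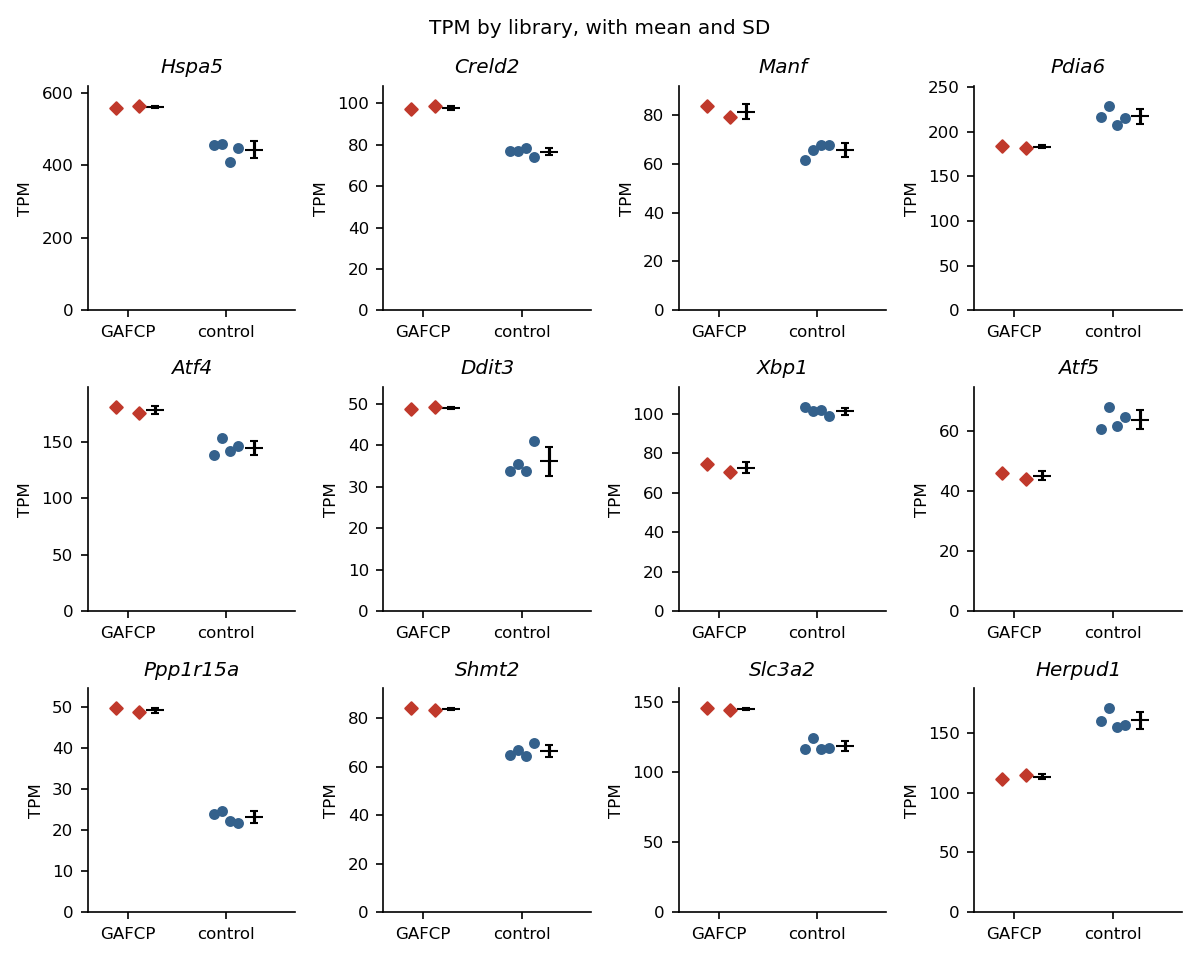
TPM of 12 stress-response genes in each library, GAFCP (red diamonds, n = 2) left of control (blue circles, n = 4), with the mean and SD of each group as black bars; every vertical axis starts at 0. In each panel the GAFCP libraries lie wholly above or wholly below the controls: below for Pdia6, Xbp1, Atf5 and Herpud1, above for the other 8.

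Of the 10 ER chaperone and folding genes, 3 rose (30%) and 1 fell (10%), with a median log2 change of 0.13. Over all genes tested 19.0% were called higher and 28.5% lower, 47.5% in either direction. Hspa5 (chromosome 2, 34771970 to 34777547), which binds unfolded chains and holds the sensors inactive, had 558 and 562 TPM in the GAFCP libraries, against 457, 459.6, 409.6 and 446 TPM in control libraries 1 to 4. Control library 3 was the lowest and no control reached the GAFCP values, with a log2 change of 0.34 ± 0.05 (SE, adjusted p = 8.9e-04 by limma). Creld2 (chromosome 15, 88819646 to 88826683), an ER-resident protein with epidermal growth factor-like domains, had 97.1 and 98.5 TPM in the GAFCP libraries, against 77.0, 77.1, 78.2 and 74.1 TPM in control libraries 1 to 4. Its controls were tight and the log2 change was 0.35 ± 0.04 (SE, adjusted p = 2.2e-04 by limma). Manf (chromosome 9, 106838312 to 106891979), a secreted and ER-resident protective factor, had 83.4 and 79.0 TPM in the GAFCP libraries, against 61.3, 65.4, 67.8 and 67.7 TPM in control libraries 1 to 4. Its lowest control was library 1, not library 3, and the log2 change was 0.31 ± 0.05 (SE, adjusted p = 0.0023 by limma).

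Pdia6 (chromosome 12, 17266545 to 17284770), a protein disulfide isomerase, moved the other way, with 184 and 182 TPM in the GAFCP libraries, against 217, 228, 208 and 215 TPM in control libraries 1 to 4. It fell in GAFCP libraries, with a log2 change of -0.24 ± 0.04 (SE, adjusted p = 0.00225 by limma). Pdia4, a related isomerase, had 135 and 133 TPM in the GAFCP libraries, against 140.1, 142, 126 and 135 TPM in control libraries 1 to 4. Its groups overlapped, and the log2 change was -0.021 ± 0.05 (SE, adjusted p = 0.769 by limma). Hsp90b1 had 401 and 406 TPM in the GAFCP libraries, against 376, 383, 339 and 371 TPM in control libraries 1 to 4. The GAFCP libraries were just above all controls, and the log2 change of 0.14 ± 0.05 (SE, adjusted p = 0.0577 by limma) missed the threshold. Hsp90b1 was called higher in 9 of the 21 alternatives, among them those without control library 2 (limma adjusted p = 0.0367) and without control library 3 (limma adjusted p = 0.023). Hyou1, the ER chaperone that acts as a nucleotide exchange factor for BiP, had 64.2 and 63.0 TPM in the GAFCP libraries, against 57.9, 60.0, 49.8 and 56.9 TPM in control libraries 1 to 4. Here too the groups did not overlap, and the log2 change of 0.18 ± 0.07 (SE, adjusted p = 0.0777 by limma) did not pass. It did pass in 8 of the 21 alternatives, among them those without control library 2 (limma adjusted p = 0.0444) and without control library 3 (limma adjusted p = 0.0303).

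The proteins of Dnajb9, Dnajc3 and Sdf2l1 work with BiP. Dnajb9 had 31.5 and 31.9 TPM in the GAFCP libraries, against 32.0, 28.2, 27.3 and 28.9 TPM in control libraries 1 to 4. Dnajc3 had 31.8 and 33.3 TPM in the GAFCP libraries, against 31.8, 30.5, 27.6 and 30.1 TPM in control libraries 1 to 4. Sdf2l1 had 63.9 and 66.5 TPM in the GAFCP libraries, against 58.3, 64.9, 59.6 and 58.1 TPM in control libraries 1 to 4. The groups overlapped for each of the 3 genes, by a single control library. Their log2 changes were 0.12 ± 0.07 (SE, adjusted p = 0.175 by limma) for Dnajb9, 0.11 ± 0.06 (SE, adjusted p = 0.18 by limma) for Dnajc3 and 0.11 ± 0.06 (SE, adjusted p = 0.127 by limma) for Sdf2l1. Sdf2l1 passed without control library 2 (limma adjusted p = 0.027) and with median-of-ratios scaling, Dnajc3 with median-of-ratios scaling and quantile normalization, and Dnajb9 with median-of-ratios scaling. Among the 10 folding genes, the count of 3 higher changed with the scaling, the variance model and the controls included. It became 8 with median-of-ratios scaling, under which 25.8% of all genes tested were called higher. The count was 5 with a robust variance model or library weights and 6 without control library 2. Without control library 3, or with control libraries 3 and 4 alone, it was 5.

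The 4 genes of ER-associated degradation, which returns misfolded protein to the cytosol for the proteasome, did not move together. Herpud1 (chromosome 8, 94386438 to 94395377), a membrane protein that organizes the ubiquitin ligase complex, had 112 and 115 TPM in the GAFCP libraries, against 159.8, 170.2, 155 and 156 TPM in control libraries 1 to 4. It fell to 0.71-fold of the control mean in GAFCP libraries, the largest decrease of the 30 genes on the log2 scale, close to that of Atf5, with a log2 change of -0.49 ± 0.05 (SE, adjusted p = 8.7e-05 by limma). Edem1, a lectin-like protein that recognizes misfolded glycoproteins, had 35.6 and 34.6 TPM in the GAFCP libraries, against 30.04, 30.9, 26.9 and 31.5 TPM in control libraries 1 to 4. It rose by a log2 change of 0.23 ± 0.07 (SE, adjusted p = 0.0266 by limma), a call lost without GAFCP library 1 (limma adjusted p = 0.149) or GAFCP library 2 (limma adjusted p = 0.0925). Syvn1, the ubiquitin ligase HRD1, had 48.0 and 49.1 TPM in the GAFCP libraries, against 45.6, 45.1, 41.3 and 45.2 TPM in control libraries 1 to 4. Both GAFCP libraries were above the controls, and the change of 0.13 ± 0.05 (SE, adjusted p = 0.0795 by limma) did not pass, though it did without control library 3 (limma adjusted p = 0.0429) and with median-of-ratios scaling, quantile normalization or library weights. Sel1l, the partner of HRD1, had 23.3 and 23.4 TPM in the GAFCP libraries, against 26.6, 26.6, 21.9 and 24.6 TPM in control libraries 1 to 4. Control library 3 alone lay below the GAFCP libraries, and the change of -0.085 ± 0.08 (SE, adjusted p = 0.433 by limma) passed without that library (log2 change -0.14, limma adjusted p = 0.049) and with control libraries 1 and 2 alone (log2 change -0.18, limma adjusted p = 0.0239).

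Of the 9 ATF4 targets and feedback genes, 5 rose (55.6%) and 0 fell, with a median log2 change of 0.21. All genes tested had 19.0% higher and 28.5% lower, 47.5% in either direction. By limma at an unadjusted p under 0.05 the count lower was also 0, and the share of all genes at that threshold was not counted. Ppp1r15a (chromosome 7, 45522916 to 45526268), the regulatory subunit GADD34 that directs a phosphatase to eIF2 and so ends the response, had 49.6 and 48.6 TPM in the GAFCP libraries, against 23.9, 24.7, 22.2 and 21.7 TPM in control libraries 1 to 4. The GAFCP libraries stood at 2.12-fold of the control mean, a log2 change of 1.05 ± 0.06 (SE, adjusted p = 7.6e-06 by limma). Ppp1r15a rose in the same libraries as 10 of the 12 immediate-early genes, among which Fos had a log2 change of 1.15 and Jun of 0.74. Of the others, Ier2 fell (-0.72) and Btg2 did not pass the test (0.14). What part this has in the change of Ppp1r15a was not tested.

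The other genes of this group that rose serve amino acid supply. Shmt2 (chromosome 10, 127517123 to 127522444), the mitochondrial serine hydroxymethyltransferase, had 83.9 and 83.2 TPM in the GAFCP libraries, against 64.6, 66.8, 64.5 and 69.8 TPM in control libraries 1 to 4. Its log2 change was 0.33 ± 0.05 (SE, adjusted p = 7.3e-04 by limma), with the groups well apart. Slc3a2 (chromosome 19, 8706882 to 8723369), the heavy chain CD98, had 146 and 145 TPM in the GAFCP libraries, against 116, 125, 117 and 118 TPM in control libraries 1 to 4. Slc7a5, the light chain LAT1 that pairs with CD98 to import large neutral amino acids, had 71.9 and 73.7 TPM in the GAFCP libraries, against 61.8, 62.4, 57.0 and 62.4 TPM in control libraries 1 to 4. Both chains rose, with log2 changes of 0.29 ± 0.04 (SE, adjusted p = 7.4e-04 by limma) for Slc3a2 and 0.26 ± 0.05 (SE, adjusted p = 0.00402 by limma) for Slc7a5. Psat1, an aminotransferase of serine synthesis, had 89.8 and 94.0 TPM in the GAFCP libraries, against 75.5, 83.2, 78.3 and 80.4 TPM in control libraries 1 to 4. It rose by a log2 change of 0.21 ± 0.05 (SE, adjusted p = 0.00908 by limma), a call lost without GAFCP library 2 (limma adjusted p = 0.0901).

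Well-known ATF4 targets in the same group did not pass. Phgdh, the first enzyme of serine synthesis, had 194 and 197 TPM in the GAFCP libraries, against 178, 193, 182 and 187 TPM in control libraries 1 to 4. The groups lay next to each other without overlap, with a log2 change of 0.079 ± 0.04 (SE, adjusted p = 0.147 by limma). Asns, asparagine synthetase, had 31.4 and 34.9 TPM in the GAFCP libraries, against 33.5, 35.0, 31.2 and 33.2 TPM in control libraries 1 to 4. The GAFCP values fell inside the control range, with a log2 change of -0.0057 ± 0.06 (SE, adjusted p = 0.95 by limma). Trib3, a pseudokinase that dampens the response, had 9.10 and 8.67 TPM in the GAFCP libraries, against 8.56, 8.78, 7.42 and 7.89 TPM in control libraries 1 to 4. Chac1 had 4.30 and 3.01 TPM in the GAFCP libraries, against 3.43, 4.34, 4.76 and 4.25 TPM in control libraries 1 to 4, and here the spread between the GAFCP libraries was near the range of the controls. The changes were 0.11 ± 0.08 (SE, adjusted p = 0.305 by limma) for Trib3 and -0.17 ± 0.15 (SE, adjusted p = 0.393 by limma) for Chac1, and both genes were low in every library.

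Ratios between a pair of genes within a library do not depend on how the library was scaled, and they are given as descriptions with no test, the pairs having been chosen after the values were seen. Atf4 over Xbp1 was 2.41 and 2.48 in the GAFCP libraries, against 1.34, 1.51, 1.38 and 1.47 in control libraries 1 to 4. Hspa5 over Pdia6 was 3.03 and 3.09 in the GAFCP libraries, against 2.10, 2.01, 1.97 and 2.08 in control libraries 1 to 4, and the Hspa5 over Herpud1 ratio was 4.998 and 4.89 in the GAFCP libraries, against 2.86, 2.70, 2.64 and 2.86 in control libraries 1 to 4. In each of these ratios the GAFCP libraries lay above all controls. The ratio of Hspa5 to Hsp90b1, the most abundant chaperones, was 1.39 and 1.39 in the GAFCP libraries, against 1.21, 1.20, 1.21 and 1.20 in control libraries 1 to 4. Control library 3, low for each gene alone, was not low for this ratio.

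**Figure D4:**
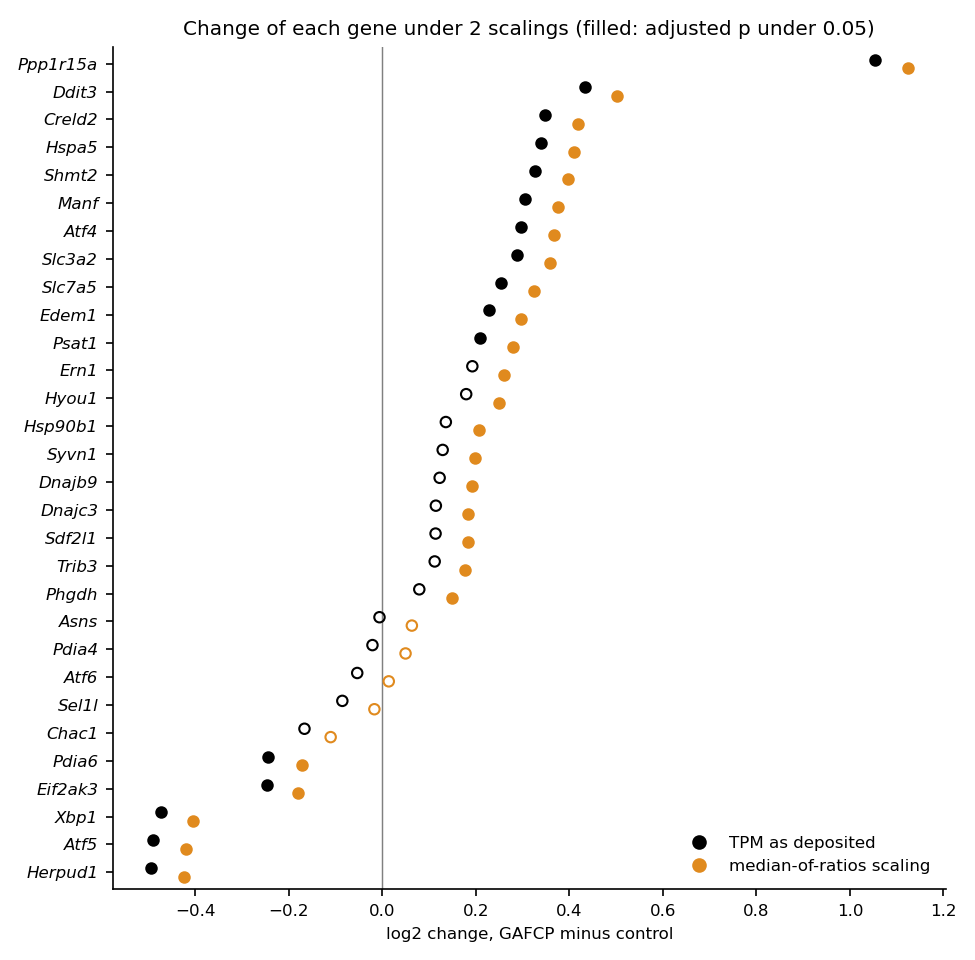
Log2 change (GAFCP minus control) of the 30 genes with TPM as deposited (black) and after median-of-ratios scaling (orange), ordered by the change; filled points have an adjusted p under 0.05. All 30 points shift to the right by about the same amount, and 9 genes that were open become filled, so that 20 rather than 11 are called higher while 5 stay called lower.

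The calls of genes with small changes varied with the setting, most with the scaling. Median-of-ratios scaling, which assumes that the typical gene does not change, moved the median of all genes tested to -0.002 and that of the 30 genes to 0.20. Under it 20 of the 30 genes were called higher and 5 lower, against 11 and 5 with TPM as deposited, while over all genes 25.8% were called higher and 24.4% lower. The genes gained were Ern1, Hsp90b1, Hyou1, Dnajb9, Dnajc3, Sdf2l1, Syvn1, Phgdh and Trib3. Among the 16 called genes, 13 kept their direction and their call under all 21 alternatives, and the exceptions were Eif2ak3, Edem1 and Psat1. The sign flipped in some settings only for genes that had not passed (Atf6, Pdia4, Asns, Sel1l and Chac1).

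Other genes of the same pathways were taken from 7 lists set from knowledge of the pathway. Of 172 genes listed, 169 passed the filter. Over these, 36 were higher (21.3%) and 61 lower (36.1%), with a median log2 change of -0.077. Over all genes tested 19.0% were higher and 28.5% lower, with a median of -0.067. After median-of-ratios scaling 53 of the pathway genes were higher and 48 lower, where 25.8% of all genes were higher and 24.4% lower. Without GAFCP library 1 there were 35 lower, and without GAFCP library 2 there were 36.

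In the wider machinery of ER folding and translocation, 6 of 47 genes were higher (12.8%) and 27 lower (57.4%), against 19.0% higher and 28.5% lower over all genes tested, with a median log2 change of -0.15. Ero1l, the oxidase that recharges disulfide isomerases, had 128 and 134 TPM in the GAFCP libraries, against 72.3, 72.5, 67.6 and 69.2 TPM in control libraries 1 to 4. It rose by a log2 change of 0.89 ± 0.05 (SE, adjusted p = 3.1e-06 by limma), more than any of the 10 chaperone and folding genes above. Dnajb11, a co-chaperone of BiP, and Ero1lb rose by 0.40 and 0.39. Dnajc10, an ER reductase with a J domain, had 50.7 and 53.4 TPM in the GAFCP libraries, against 88.6, 94.7, 82.7 and 90.1 TPM in control libraries 1 to 4. It fell, with a log2 change of -0.76 ± 0.06 (SE, adjusted p = 2.8e-05 by limma), and the signal peptidase subunit Sec11c and the translocon protein Sec62 had log2 changes of -0.43 and -0.40. With GAFCP library 1 or GAFCP library 2 left out, 16 of the 47 were lower.

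In the other degradation genes, 1 of 23 was higher (4.35%) and 7 lower (30.4%, list median -0.098), against 19.0% and 28.5% over all genes tested. Aup1, a lipid droplet and ER protein of the ligase complex, rose by 0.18. The deglycosylase Ngly1, the lectin Erlec1 and the rhomboid protease Rhbdd1 had log2 changes of -0.44, -0.43 and -0.42. Without control library 3, 11 were lower, and with median-of-ratios scaling 6 were higher.

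Among 16 other regulators of the unfolded protein response, 1 was higher (6.25%) and 3 lower (18.8%, median -0.054). The shares over all genes tested were 19.0% and 28.5%. Creb3l1, an ER-anchored factor released by the same proteases as ATF6, had 16.4 and 19.0 TPM in the GAFCP libraries, against 35.9, 36.8, 33.4 and 36.0 TPM in control libraries 1 to 4. It fell to 0.50-fold of the control mean, a log2 change of -0.97 ± 0.07 (SE, adjusted p = 2.2e-05 by limma). Mbtps1, the site-1 protease that starts ATF6 cleavage, had 76.8 and 80.5 TPM in the GAFCP libraries, against 109, 114, 104 and 111 TPM in control libraries 1 to 4. It fell as well (log2 change -0.47 ± 0.05 SE, adjusted p = 1.3e-04 by limma), while Mbtps2, the second protease, was at 8.77 TPM with GAFCP and 8.64 TPM in controls and did not pass (limma adjusted p = 0.844). Fam129a had a log2 change of -0.59. Tmbim6, an ER membrane protein that restrains IRE1, rose by 0.10, a call lost without control library 1, 3 or 4 or either GAFCP library. Without control library 3, 5 were lower.

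Of 17 genes for the other eIF2 kinases, eIF2 and its exchange factor eIF2B, 2 were higher (11.8%) and 4 lower (23.5%, median -0.051). Over all genes tested these shares were 19.0% and 28.5%, and whether the list differs from them was not tested. Eif2ak2, the double-stranded RNA sensor PKR, which is also an interferon-induced gene, had 23.8 and 23.3 TPM in the GAFCP libraries, against 20.7, 19.9, 16.8 and 20.3 TPM in control libraries 1 to 4. It rose by a log2 change of 0.27 ± 0.09 (SE, adjusted p = 0.034 by limma), and the eIF2B subunit gene Eif2b2 by 0.25. Ppp1r15b, the constitutive counterpart of GADD34, had 30.9 and 30.9 TPM in the GAFCP libraries, against 39.0, 39.8, 33.7 and 36.1 TPM in control libraries 1 to 4. It fell, with a log2 change of -0.25 ± 0.07 (SE, adjusted p = 0.02 by limma), so that Ppp1r15a over Ppp1r15b was 1.60 and 1.57 in the GAFCP libraries, against 0.613, 0.621, 0.658 and 0.602 in control libraries 1 to 4. Eif2d and Eif2a, initiation factors that can work apart from eIF2, had log2 changes of -0.28 and -0.24. The counts were 1 higher and 2 lower without GAFCP library 1, and 1 higher and 1 lower without GAFCP library 2.

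Aminoacyl-tRNA synthetase genes, several of which are ATF4 targets, split into 8 higher (40%) and 6 lower (30%) of 20 (median 0.048). All genes tested had 19.0% higher and 28.5% lower. Wars, which is also an interferon-induced gene, had 162 and 162 TPM in the GAFCP libraries, against 54.0, 56.8, 56.6 and 60.6 TPM in control libraries 1 to 4. Its rise of 1.49 ± 0.05 (SE, adjusted p = 3.0e-07 by limma) was the largest of the list, and Kars and Cars rose by 0.32 and 0.30. Dars, Eprs and Sars had log2 changes of -0.40, -0.28 and -0.24. The count lower was 3 without control library 1 or 4, 1 without GAFCP library 1 and 2 without GAFCP library 2.

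Amino acid transport and synthesis genes linked to ATF4 also split, with 6 of 24 tested higher (25%) and 9 lower (37.5%, median -0.13). Among all genes tested these shares were 19.0% and 28.5%. The mitochondrial folate enzymes Mthfd2 and Mthfd1l, which use the one-carbon units that SHMT2 makes, rose with Shmt2. Mthfd2 had 33.4 and 37.7 TPM in the GAFCP libraries, against 24.3, 24.2, 24.0 and 24.4 TPM in control libraries 1 to 4, and Mthfd1l had 34.7 and 35.3 TPM in the GAFCP libraries, against 22.9, 24.8, 20.2 and 23.7 TPM in control libraries 1 to 4. Their log2 changes were 0.53 ± 0.06 (SE, adjusted p = 2.0e-04 by limma) and 0.60 ± 0.08 (SE, adjusted p = 5.9e-04 by limma). Shmt1, the cytosolic counterpart of Shmt2, went the other way at 23.6 TPM with GAFCP and 28.9 TPM in controls (log2 change -0.28 ± 0.08 SE, adjusted p = 0.0173 by limma), and Shmt2 over Shmt1 was 3.69 and 3.41 in the GAFCP libraries, against 2.08, 2.34, 2.47 and 2.34 in control libraries 1 to 4. The cationic amino acid transporter Slc7a1 rose by 0.47. Cbs, the first enzyme of transsulfuration, had 8.67 and 9.03 TPM in the GAFCP libraries, against 20.1, 21.8, 18.8 and 21.5 TPM in control libraries 1 to 4. It fell, with a log2 change of -1.13 ± 0.07 (SE, adjusted p = 1.2e-05 by limma), and the proline synthesis enzyme Pycr1 and the transporter Slc1a4 had log2 changes of -0.79 and -0.56. Leaving out GAFCP library 1 left 5 lower.

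The list with the highest median (0.36) was that of other stress genes linked to ATF4. Of 22 tested, 12 were higher (54.5%) and 5 lower (22.7%), against 19.0% and 28.5% over all genes tested. Atf3, a factor induced by ATF4 and by many other signals, had 121 and 117 TPM in the GAFCP libraries, against 20.6, 21.0, 18.9 and 21.8 TPM in control libraries 1 to 4. It rose by a log2 change of 2.48 ± 0.06 (SE, adjusted p = 6.8e-08 by limma), beyond any of the 30 genes. Nupr1, a stress-induced chromatin protein, had 1369 and 1395 TPM in the GAFCP libraries, against 479, 501, 503 and 501 TPM in control libraries 1 to 4. Gdf15, a secreted stress cytokine, had 23.1 and 24.3 TPM in the GAFCP libraries, against 9.27, 8.59, 10.5 and 8.70 TPM in control libraries 1 to 4. Nupr1 and Gdf15 rose by log2 changes of 1.48 ± 0.03 (SE, adjusted p = 3.8e-08 by limma) and 1.27 ± 0.09 (SE, adjusted p = 1.5e-05 by limma), with the groups far apart. Trib2, the secreted glycoprotein gene Stc2 and Klhl24 had log2 changes of -0.95, -0.56 and -0.33. Several of these genes respond to inputs other than ATF4, and the macrophage and immediate-early markers were higher in the same libraries. What part those have in these changes was not tested. With either GAFCP library left out, 3 were lower.

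**Figure D5:**
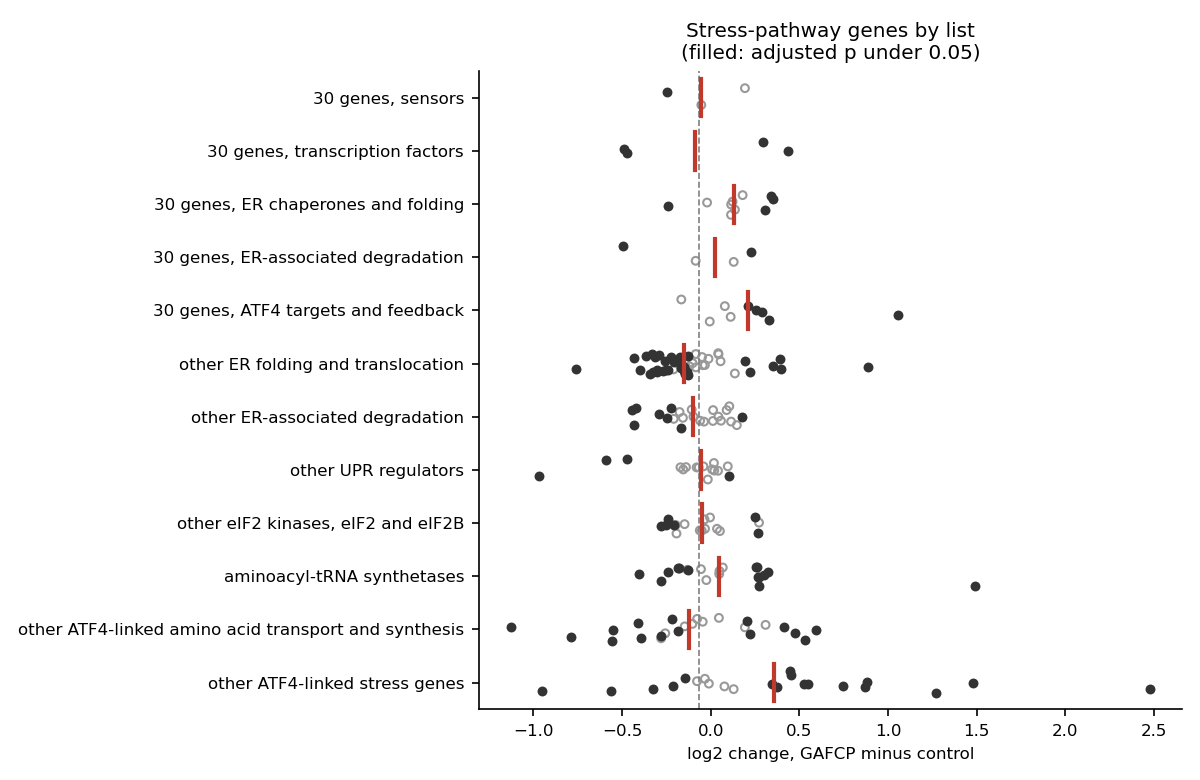
Log2 change (GAFCP minus control) of each tested gene, by role for the 30 genes (the upper 5 rows) and for the 7 other lists; filled points passed at an adjusted p under 0.05, the red bar is the list median and the dashed line the median of all genes tested. Stress genes linked to ATF4 have the highest median (0.36) and ER folding and translocation the lowest (-0.15).

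The labels do not say whether reads were counted by strand. In GENCODE M21 on mm10 exons of 11 of the 30 genes overlap exons of another gene, which for 10 of them is also in the table. Ddit3 overlaps Mars, the methionyl-tRNA synthetase gene, on the opposite strand, and Mars rose by 0.27. Atf5 overlaps Il4i1 and Nup62, which had log2 changes of 0.0036 and -0.0073 and did not pass. Syvn1 overlaps Mrpl49, which fell (log2 change -0.31). Manf overlaps Rbm15b on the same strand and Dcaf1 on the opposite strand, which had log2 changes of -0.11 and -0.10 and did not pass. Counting by strand would not separate Manf from Rbm15b. Ppp1r15a overlaps Tulp2, which stayed under 1 TPM in every library, and Pdia6 overlaps Atp6v1c2, at 0 in 5 of the 6 libraries. How reads were divided between overlapping genes was not tested.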

How the data were processed

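RNA from sorted tumor cells was read in 6 libraries. The deposited table gives TPM per gene symbol, made by the authors using Salmon and mm10 (per the submitters' processing notes). Which Salmon version and which annotation they used is not given in the sources used. Libraries share 1 total, so depth is unknown and no counting interval is given.

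The filter of 1 TPM or more in at least 2 libraries left 13720 genes. Their log2(TPM + 1) values were fitted in limma 3.58.1 (R 4.3.3) using a variance trend, which leaves 4 residual degrees of freedom. Benjamini-Hochberg adjustment ran over all genes tested, and an adjusted p under 0.05 was called. A log2 change is GAFCP minus control, and this scale understates changes of low genes. The 30 genes, the lists and the alternatives were chosen with earlier results of these data known. All 30 genes are named, with the 3 largest called increases and decreases of each other list. The naming of Mbtps2, Shmt1, Fos, Jun, the ratios and overlapping genes came after seeing their values. Groups came from sample titles, and positions from GENCODE M21 on mm10. Promoters came from RefSeq on GRCm38.p6. Alternatives changed pseudocount, filter, scaling, variance model, threshold, pairing and libraries. Protein sequences were not used here.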

Additional observations from a re-analysis of the deposited data

Results flagged for a closer look

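Among the 30 genes, 4 had a control library far from the other controls, by the gap to its nearest neighbor relative to the range of the 4 controls (Dixon's test at 95%). Chance flags about 1 gene in 20. The lowest control was library 3 for Atf6 (15.5 TPM, the others from 17.9 to 18.3 TPM). For Syvn1 it was also library 3 (41.3 TPM, the others from 45.1 to 45.6 TPM), as it was for Slc7a5 (57.0 TPM, the others from 61.8 to 62.4 TPM). The highest control for Slc3a2 was library 2 (125 TPM, the others from 116 to 118 TPM). Without control library 3 the log2 change was 0.097 for Syvn1 and 0.22 for Slc7a5, and without control library 2 it was 0.31 for Slc3a2.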

How the results depend on the processing

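Of the 21 alternatives, median-of-ratios scaling moved the calls most: 20 of the 30 genes were higher in place of 11, and 8 of the 10 ER chaperone and folding genes in place of 3. That count was 5 with quantile normalization, with rescaling without small RNA and ribosomal RNA genes, with a robust variance model, with library weights, and with control libraries 3 and 4 alone. At a threshold of 0.01, 2539 of all genes were lower in place of 3909, and 36 of the other pathway genes in place of 61. Leaving out each library in turn gave 1715 to 2610 higher and 2514 to 4641 lower among all genes, 9 to 14 higher and 4 to 6 lower among the 30, 3 to 6 higher among the chaperone and folding genes, 4 to 5 higher among the ATF4 targets, and 28 to 36 higher and 35 to 77 lower among the other pathway genes. Among all genes the calls fell most without GAFCP library 1 (1744 higher, 2514 lower) and GAFCP library 2 (1715 higher, 2598 lower). The lone library left in the GAFCP group is then assumed to vary like the controls. Of 629 log2 changes of single genes, 576 kept direction and call, 7 lost the call, 32 gained it and 14 changed sign. Those that changed sign were of genes that had not passed: Atf6 0.014 and Pdia4 0.050 and Asns 0.064 with median-of-ratios scaling; Atf6 0.0014 and Asns 0.028 with quantile normalization. Leaving out 1 library gave -0.11 to 0.0011 for Atf6, -0.056 to 0.0013 for Pdia4, -0.079 to 0.068 for Asns and -0.37 to 0.036 for Chac1. With control libraries 3 and 4 alone they were Atf6 0.0096, Pdia4 0.035, Sel1l 0.0096 and Asns 0.037. Chac1 had no value under the filter on a mean of 5 TPM. The cause was not tested. Counts of the small lists ranged, over all alternatives, from 0 to 1 higher and 0 to 1 lower for the sensors, 0 to 2 and 1 to 2 for ER-associated degradation, 4 to 8 and 16 to 32 for the other folding genes, 1 to 6 and 5 to 11 for the other degradation genes, 0 to 2 and 3 to 5 for the other regulators, 1 to 4 and 1 to 7 for the eIF2 genes, 6 to 11 and 1 to 7 for the synthetases, 4 to 8 and 5 to 12 for amino acid genes, and 11 to 14 and 3 to 6 for stress genes.

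GAFCP and control libraries share the numbers 1 and 2, and deviations of same-numbered libraries from their group means correlated at -0.007 and -0.020. The deviations of the 2 GAFCP libraries mirror each other, so these values cannot show whether same-numbered libraries were paired. With the replicate number as a block, 11 of the 30 genes were higher and 5 lower, and 2128 and 3766 of all genes. Control libraries 3 and 4 have no GAFCP library of the same number, so the log2 changes of this fit rest on libraries 1 and 2. The median over the 30 genes was 0.085, the same as with control libraries 1 and 2 alone. Depth is unknown, so what it limits cannot be given.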
